A study of Homo with 2 samples.

Results

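Among the barcodes of human blastoids profiled by droplet single-cell RNA sequencing, 173 held almost no RNA of the mitochondrial genome. They were chosen by a rule: at least 1000 detected genes, and under 1% of unique molecular identifiers (UMIs, 1 per captured RNA molecule) from the genes named MT-, which the mitochondrial genome encodes. They made up 173 of the 2596 barcodes with at least 1000 genes, of 4589 in all: 94 of 1008 in library 1 (9.33%, 95% exact interval 7.60 to 11.3) and 79 of 1588 in library 2 (4.97%, 3.96 to 6.16). The mean share was 7.15% ± 3.08 (SD, n = 2).

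Blastoids are embryo-like aggregates of stem cells that form the layers of a blastocyst. Both libraries belong to 1 group: cells of the established human embryonic stem cell line KhES1, aggregated for 24 h in microwells and kept for 4 days in hydrogel in DMEM with 10% FBS and 10 µM of the ROCK inhibitor Y27632. The labels give no other treatment and no control group, and leave unsaid whether each library had its own culture. A p-value here measures only how differences between classes of barcode varied from 1 library to the other. That variation may be technical.

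Mitochondria carry their own small genome, and its transcripts stay inside the organelle, while nearly all other mitochondrial proteins come from nuclear genes whose mRNAs are translated in the cytosol. Unspliced transcripts of long genes and some noncoding RNAs, such as MALAT1 and NEAT1, stay in the nucleus, and mRNAs of ribosomal proteins lie mostly in the cytosol. In droplet data a very low or very high mitochondrial share is commonly read as a sign of barcode quality.

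The members were compared with 312 barcodes of like depth, 50 in library 1 and 262 in library 2, which had at least 1000 genes, 2 to 20% MT- UMIs and 2000 to 8000 UMIs in total, called comparison barcodes here. A further 1772 barcodes had 2 to 20% MT- UMIs and over 8000 UMIs, called deeper barcodes, and 140 had over 20% MT- UMIs. The median total was 3058 UMIs in the members of library 1 and 3701 in those of library 2, against 3564.5 and 3759.5 in the comparison barcodes and 39022 and 35052 in the deeper barcodes. The members ranged widely, from 1411 to 346975 UMIs. Only 3 exceeded 100000 UMIs, and these held 23.6% of all member UMIs in library 1 (1 barcode) and 51.0% in library 2 (2 barcodes). Scrublet marked 5 barcodes as doublets, none of them a member. The libraries shared 1 barcode sequence, which was not a member.

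The MT- values chose the members and are given as a description only. The median MT- share was 0.0917% in library 1 and 0.126% in library 2, against 7.19% and 4.65% in the comparison barcodes. In library 1, 50 of the 94 members were under 0.1%, and in library 2, 35 of 79. No MT- UMI at all was counted in 8 members of library 1 and 9 of library 2. The UMIs that remained were spread over the mitochondrial genes: MT-CO2, a subunit of cytochrome c oxidase, gave 27.0% of the members' MT- UMIs in library 1 and 18.5% in library 2, against 14.1% and 16.1% in the comparison barcodes. Few barcodes lay at the limits, with 2 members at 0.9 to 1% MT- and 5 barcodes just outside at 1 to 1.1%. At the gene limit 20 members had fewer than 100 genes above the 1000 required, with a median ribosomal protein share of 27.2%, and 14 barcodes under 1% MT- fell short by at most 100 genes, with 28.5%.

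Most members lay in 1 of 2 ranges, with few between them. The ranges are of the share of nuclear-gene UMIs (UMIs of all genes not encoded in mitochondria) that came from long genes, those spanning at least 100 kb in RefSeq (GRCh38.p14). In 106 of the 173 members this share was under 15%, in 52 it was over 35%, and only 15 (8.67%) lay between. The ranges were set after the values were seen, so they describe the members and carry no test. Within 2.5 points of the lower limit lay 14 members, and within 2.5 points of the upper limit lay 9. Members under 15% made up 64 of 94 in library 1 (68.1%, 57.7 to 77.3) and 42 of 79 in library 2 (53.2%, 41.6 to 64.5). Members over 35% made up 21 (22.3%, 14.4 to 32.1) and 31 (39.2%, 28.4 to 50.9).

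The range that few members occupied was where most other barcodes stood. Of the deeper barcodes, 75.7% in library 1 and 81.0% in library 2 lay at 15 to 35%. Of the comparison barcodes, 40.0% (26.4 to 54.8) did so in library 1 and 83.2% (78.1 to 87.5) in library 2, against 9.57% and 7.59% of the members. The comparison barcodes of library 1 thus contained many of the outer ranges too: 16 of 50 were under 15% and 14 were over 35%. Barcodes over 20% MT- were mostly on the long-gene side, 85.9% in library 1 and 82.6% in library 2. In the band of 2000 to 8000 UMIs that the comparison barcodes also occupy, the members under 15% were 43 of 65 in library 1 and 29 of 48 in library 2, and those over 35% were 16 and 16.

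**Figure D1:**
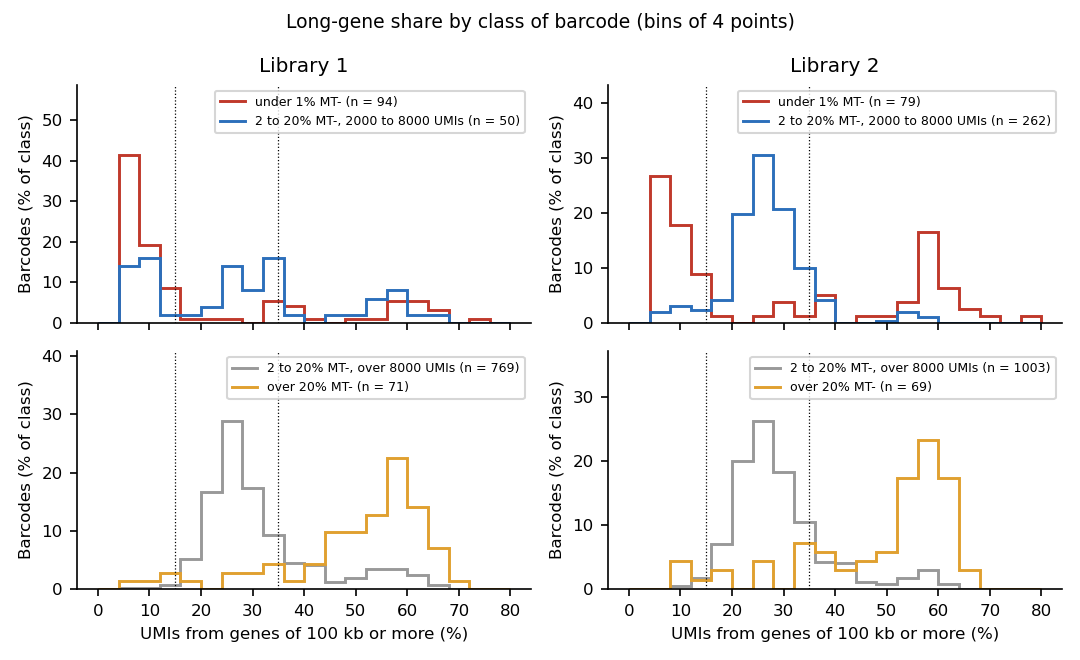
Distribution of the long-gene share of nuclear-gene UMIs (x axis, %) in 4 classes of barcode, as a percent of each class (y axis), by library. Dotted lines stand at 15 and 35%. The members (red) have a peak on each side of these limits, while the comparison barcodes of library 2 and the deeper barcodes of both libraries peak between them.

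In the members of low long-gene share, most nuclear-retained noncoding RNAs were low and ribosomal protein mRNAs were abundant. MALAT1 (chromosome 11, 65497738 to 65506516, GRCh38.p14), an abundant noncoding RNA of nuclear speckles, had a median share of 0.0738% in library 1 and 0.0881% in library 2, against 1.19% and 1.81% in the comparison barcodes. The 10th to 90th percentile ran from 0.00840 to 0.683% in library 1 and from 0 to 0.921% in library 2, so a few of these members held more. NEAT1, the RNA scaffold of paraspeckles, stood at 17.3 and 46.0 CPM (UMIs per 1000000 nuclear-gene UMIs, averaged over barcodes), against 1693 and 645 in the comparison barcodes. Of the 8 nuclear-retained RNAs at 10 CPM or more in either class, 7 were at least 2-fold lower in both libraries, beside 23.1% of the 10990 genes at that level. FTX, a noncoding RNA of the X inactivation centre, stood at 24.5 and 59.3 CPM against 669 and 584. The level of any listed gene of 100 kb or more follows in part from the choice of the range. Genes with detained introns, whose transcripts also stay partly in the nucleus, differed less, at 0.600 and 0.748 times the comparison share, with 2 of 8 at least 2-fold lower.

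Low levels of genes of 100 kb or more follow from the choice of the range. This also holds for such genes among the nuclear-retained RNAs, matrix genes and markers of cell identity. All shares are of the same total, so a low long-gene share also raises the shares of the other genes as a group. How much of the list ratios below comes from this was not tested. RYR2 and FHIT are given for their size only. RYR2, the calcium release channel of the endoplasmic reticulum in heart, stood at 13.2 and 29.6 CPM, against 489 and 727 in the comparison barcodes. FHIT, which spans 1504176 bases, stood at 10.7 and 12.4 CPM against 352 and 295. The median of all 10990 genes was itself shifted by -0.45 on the log2 scale, so most genes stood lower and a smaller set of abundant mRNAs stood higher, with 2.28% of genes at least 2-fold higher in both libraries.

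Ribosomal protein mRNAs were among those that stood higher. They gave a median of 30.05% of nuclear-gene UMIs in these members of library 1 and 28.4% in library 2, against 15.02% and 16.7% in the comparison barcodes and 16.2% and 16.9% in the deeper ones. As a list of 79 genes, their mean share was 1.74 and 1.70 times that of the comparison barcodes. The median log2 ratio of the list was 0.81, and only 4 of the 79 were at least 2-fold higher in both libraries. RPL7, a protein of the large subunit, stood at 2691 and 2827 CPM against 1198 and 1071. Ribosomal protein genes have many near-identical pseudogene copies, so the counts of single members are less certain than the list.

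Several lists of nuclear genes for mitochondrial proteins stood higher in these members, while the genes of the mitochondrial genome were low by the rule. The mRNAs for the respiratory chain and ATP synthase took 1.87 and 1.74 times the share in the comparison barcodes, with 6 of 74 genes at least 2-fold higher in both libraries and 0 lower. COX7C, a subunit of cytochrome c oxidase, stood at 1586 and 1476 CPM against 812 and 759. The mitochondrial ribosome list stood at 1.64 and 1.73 times, with 3 of 34 genes at least 2-fold higher, and the protein import list at 1.61 and 1.55 times, with 0 of 18. Mitochondrial gene expression factors stood at 1.43 and 1.22 times, with 0 of 17 at least 2-fold higher and 2 lower, and mitophagy genes at 1.49 and 1.25 times, with 0 of 12 higher and 1 lower. The background for these counts is again 2.28% higher and 23.1% lower. The ratios of these lists include the rise that a low long-gene share gives to other genes as a group.

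mRNAs of cytoskeleton, translation factors and ferritin formed the same pattern, with the list at 1.95 and 1.72 times the share. FTL, the light chain of the iron store ferritin, stood at 5646 and 5320 CPM against 2152 and 2899.6. S100A10, of the S100 protein family, stood at 1650 and 1588 CPM against 462 and 727. Glycolysis stood at 1.39 and 1.74 times. The lists of splicing factors and nuclear proteins stood at 0.905 and 1.15 times.

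Secreted and endoplasmic reticulum products differed between the libraries. The secreted and matrix list stood at 1.17 times the comparison share in library 1 and 0.626 times in library 2, and the ER chaperone list at 1.38 and 0.658 times, so neither had 1 direction. Within the matrix list 6 of 24 genes were at least 2-fold lower in both libraries, beside 23.1% of all genes. LAMA1, a basement membrane chain, stood at 6.16 and 15.4 CPM against 75.8 and 94.2.

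**Figure D2:**
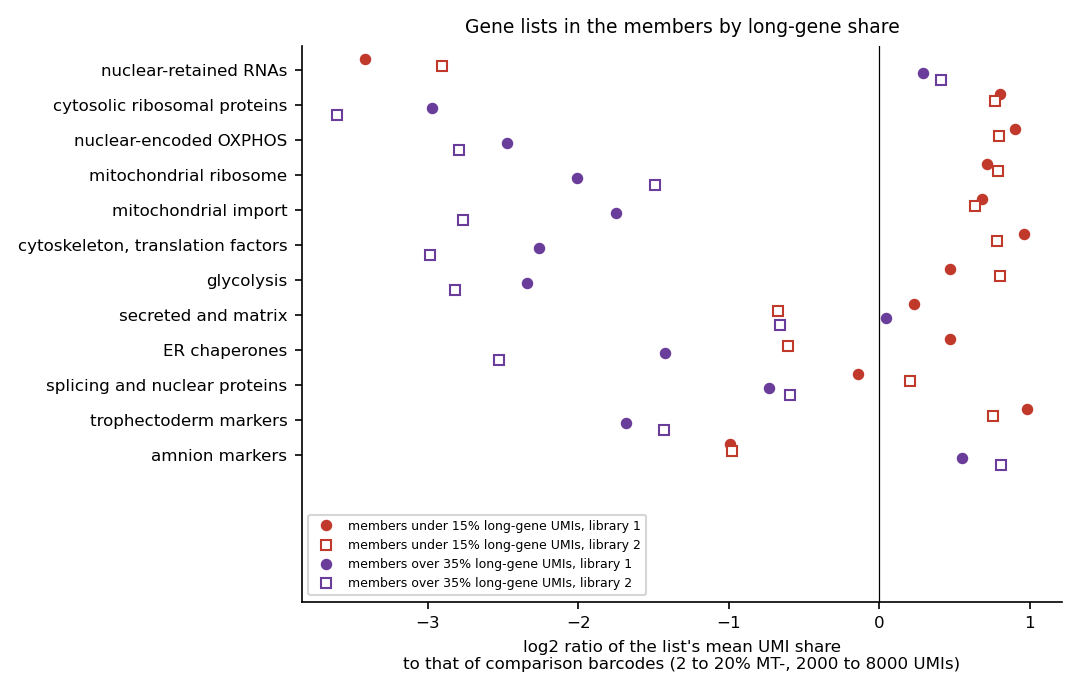
Mean UMI share of 12 gene lists in members under 15% (red) and over 35% (purple) long-gene UMIs, as a log2 ratio to the comparison barcodes, with library 1 as filled circles and library 2 as open squares. Ribosomal protein and respiratory chain lists lie above 0 in red and below 0 in purple, and the nuclear-retained RNAs lie the other way round.

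Members of high long-gene share showed the opposite levels. Their median long-gene share was 58.0% in library 1 and 58.5% in library 2, and their median ribosomal protein share was 1.14% and 0.755%. MALAT1 had a median share of 0.814% and 1.72%, near the comparison barcodes at 1.19% and 1.81%. After thinning every barcode to 2000 nuclear-gene UMIs, MALAT1 had a UMI in 16 of 16 of these members in library 1 and 26 of 26 in library 2. In the members of low long-gene share it had one in 42 of 58 (72.4%, 59.1 to 83.3) and 22 of 39 (56.4%, 39.6 to 72.2), against 87.2% and 98.0% of the comparison barcodes.

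All 79 ribosomal protein genes were at least 2-fold lower in these members than in the comparison barcodes, beside 14.8% of 12001 genes. The share of the list was 0.127 and 0.0821 times that of the comparison barcodes. Of 74 nuclear-encoded respiratory chain genes, 57 were at least 2-fold lower, and of the cytoskeleton and translation list 28 of 30. COX7C stood at 111 and 37.8 CPM. FTL stood at 262 and 172 CPM. A high long-gene share lowers the shares of other genes as a group, and its part in these values was not tested.

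NEAT1 stood at 2957 and 1297 CPM and FTX at 1018 and 1570 CPM, both above the comparison barcodes. The nuclear-retained list as a whole stood at 1.22 and 1.33 times the comparison share. Of its 9 genes at 10 CPM or more in either class, 2 were at least 2-fold higher in both libraries, beside 8.61% of genes. None was at least 2-fold lower, and the median log2 ratio was 1.01. RYR2 stood at 1871 and 747 CPM, high in library 1 and level with the comparison barcodes in library 2. Long genes are high in this range by its choice: THSD7A, a membrane-linked protein spanning 461834 bases, stood at 297 and 504 CPM against 22.0 and 57.3, and SPOCK1, a proteoglycan spanning 524029 bases, at 421 and 209.8 CPM against 24.4 and 44.0. In all, 8.61% of genes were at least 2-fold higher in both libraries.

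Barcodes over 20% MT- were set beside the members over 35%. Among those that were also over 35% long-gene UMIs, the median ribosomal protein share was 2.35% in library 1 and 1.92% in library 2, against 1.14% and 0.755% in the members. Against all barcodes over 20% MT-, which include 10 and 12 of lower long-gene share, 55 of 79 ribosomal protein genes were at least 2-fold lower in those members in both libraries, beside 7.94% of genes, with 0 higher beside 2.91%. The summed nuclear-retained RNAs stood at 1.76 and 1.62 times, but 0 of 9 were at least 2-fold higher in both libraries and the median log2 ratio was 0.12. Comparison barcodes over 35% long-gene UMIs, 14 in library 1 and 27 in library 2, had a median ribosomal protein share of 1.52% and 8.89%. Their median long-gene share was 54.2% and 38.4%, and their median MT- share 8.6% and 10.9%. A low ribosomal protein share was thus not limited to the members.

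**Figure D3:**
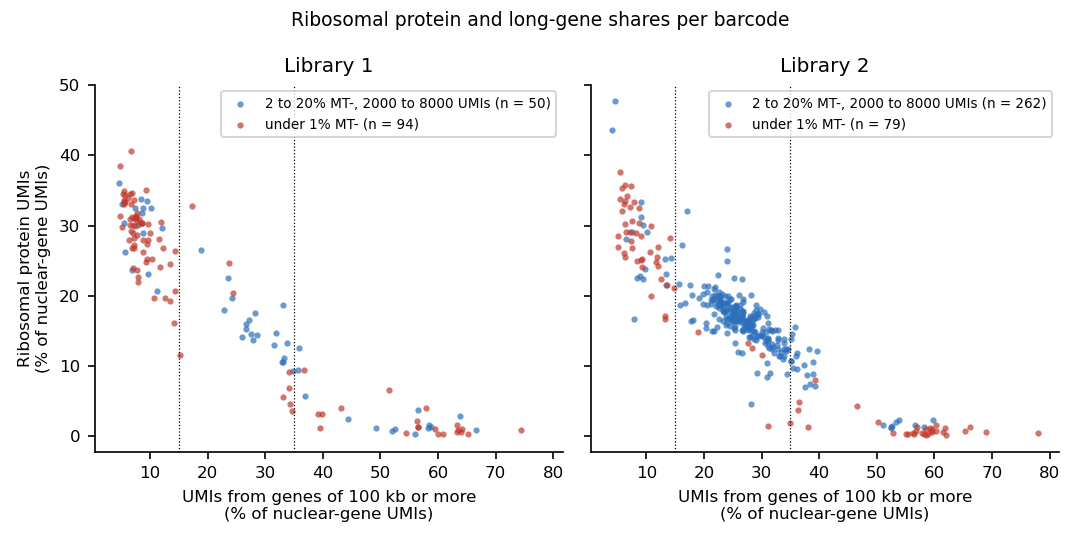
Ribosomal protein share (y axis, % of nuclear-gene UMIs) against long-gene share (x axis, %) for each member (red) and comparison barcode (blue), by library, with dotted lines at 15 and 35%. Red points crowd the upper left and the lower right, and in library 2 most blue points fill the middle.

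Ribosomal protein and long-gene shares ran against each other in members and comparison barcodes alike. Spearman's rho between ribosomal protein and long-gene share was -0.87 over 94 members in library 1 and -0.91 over 79 in library 2, and -0.94 and -0.83 in the comparison barcodes. Both shares have the same total as denominator and come from 1 library each, so this is a description. The MALAT1 share was higher where the long-gene share was higher in the members (rho 0.72 and 0.68, over the same barcodes).

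The 15 members between the limits, 9 in library 1 and 6 in library 2, had mixed levels. Their median MT- share was 0.568% in library 1 and 0.548% in library 2, their ribosomal protein share 9.14% and 12.1%, and their MALAT1 share 4.51% and 5.06%, above the comparison medians of 1.19% and 1.81%.

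The deepest members were not all of 1 kind. The barcode of 346975 UMIs, in library 2, had 14.1% long-gene and 28.2% ribosomal protein UMIs at 0.0467% MT-. The barcode of 154441 UMIs, in library 1, had 24.4% and 20.4% at 0.879% MT-, and that of 140995 UMIs, in library 2, had 13.5% and 21.6% at 0.729%, so the last pair stood nearer the 1% limit.

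Low MT- and low long-gene shares did not always go together. The 16 comparison barcodes of library 1 and 17 of library 2 under 15% long-gene UMIs had median MT- shares of 5.84% and 11.02%. Their ribosomal protein share, 29.9% and 28.0% on average, was close to the 29.1% and 28.2% of the members of that kind. Their nuclear-retained RNA share was 0.209% and 0.233%, beside 0.273% and 0.309% in the members.

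Markers of cell identity were read in both kinds of member. Trophectoderm keratins were abundant in the members of low long-gene share: KRT8 stood at 2301 and 2056 CPM against 812 and 998 in the comparison barcodes, and KRT19 at 2124 and 1863 against 836 and 857. The trophectoderm list stood at 1.98 and 1.69 times the comparison share, with 4 of 14 markers at least 2-fold higher (KRT7, KRT8, KRT19 and HAND1) beside 2.28% of all genes, and 3 lower (TFAP2C, LRP2 and CDX2) beside 23.1%. TFAP2C, a transcription factor of the trophoblast, stood at 34.9 and 25.1 CPM against 118 and 58.9, and LRP2, a receptor for endocytosis, at 47.2 and 95.5 against 443 and 357. HAND1, a transcription factor of the trophoblast, stood at 919 and 788 CPM against 312 and 303. GATA3, a transcription factor of trophectoderm and amnion, stood at 222 and 171 CPM against 188 and 179, and differed less than the keratins.

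Of the amnion markers 4 of 11 were at least 2-fold lower in these members, beside 23.1% of genes. MEIS1, a long homeobox gene, stood at 103 and 118 CPM against 755 and 586, while the channel subunit GABRP stood at 500.4 and 358 against 319.6 and 444. In the members of high long-gene share, MEIS1 stood at 1526 and 1742 CPM, GABRP at 209 and 103, and KRT8 at 201 and 217. There the trophectoderm list stood at 0.312 and 0.370 times the comparison share, with 6 of 14 markers at least 2-fold lower and 0 higher. The epiblast list stood at 0.124 and 0.327 times, with 4 of 7 lower and 0 higher. The amnion list stood at 1.47 and 1.75 times, but 2 of 11 were higher, 1 lower and the median log2 ratio was -0.20. The background was 8.61% higher and 14.8% lower. POU5F1, the pluripotency factor, had a UMI after thinning in 8 of 81 members of library 1 (9.88%, 4.36 to 18.5) and 7 of 68 of library 2 (10.3%, 4.24 to 20.1), against 14.9% and 14.3% of the comparison barcodes, with overlapping intervals. No cell type that should lack POU5F1 was called, so the part of free RNA in these shares was not tested. The members of low long-gene share held the mesenchyme markers at 1.75 and 1.354 times the comparison share. Of the 8 at 10 CPM or more, 1 was at least 2-fold higher in both libraries and 0 lower, with a median log2 ratio of 0.21. The background was 2.28% higher. Of these markers 8 of 10 passed the filter on low counts. Among the 8, TAGLN was called higher in all members against the comparison barcodes, beside 0.745% of all genes. Only 4 of the 8 had a fold change above 0, with a median of 0.13, so the list did not rise as a set. Of the streak and mesoderm and the endoderm markers 1 each passed the filter. The streak marker MIXL1 had 0 UMIs in the members of both libraries, which allows up to 4.599 and 3.14 CPM (3 UMIs per library). It stood at 16.5 and 29.98 CPM in the deeper barcodes. With 0 UMIs in the members, MIXL1 passed the filter only through other classes. Its test could go only 1 way, so no p-value is given.

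A pair of genes with no symbol in the files fell in all 13 versions of both comparisons. The genes ENSG00000289474 and ENSG00000289901 stood at 88.9 and 30.4 CPM and at 23.0 and 16.8 CPM in the summed members of libraries 1 and 2, against 1539 and 459 and against 892 and 424 in the comparison barcodes. Each gene was lower in the members of either library than in the comparison barcodes of either library. The log2 fold change was -3.78 ± 0.29 (SE, edgeR's quasi-likelihood test with Benjamini-Hochberg adjustment, adjusted p = 5.11e-07) for ENSG00000289474. For ENSG00000289901 it was -4.78 ± 0.41 (SE, edgeR, adjusted p = 1.99e-06). Against the deeper barcodes the values were -2.81 (edgeR, adjusted p = 4.28e-05) and -3.46 (edgeR, adjusted p = 0.000163).

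The level of both genes was higher where the MT- share was higher. Among barcodes of 2000 to 8000 UMIs their summed level was 7.14 CPM in library 1 and 13.2 CPM in library 2 at 0 to 0.1% MT-, resting on 1 UMI each. It was 1046 and 353 CPM at 0.5 to 1%, 1512 and 701 CPM at 2 to 5%, and 7596 and 4241 CPM over 20%, though not higher at every step (3502 CPM at 5 to 10% and 2642 CPM at 10 to 20% in library 1). They were also low in the members of high long-gene share: ENSG00000289474 stood at 48.7 and 44.9 CPM there, while NEAT1 was high. Within the deeper barcodes, themselves chosen at 2 to 20% MT-, Spearman's rho between their summed share and the MT- share was 0.71 over 769 barcodes and 0.58 over 1003. Both shares are of the same barcodes. The MT- share also chose the members, so whether both genes fell apart from that choice was not tested.

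**Figure D4:**
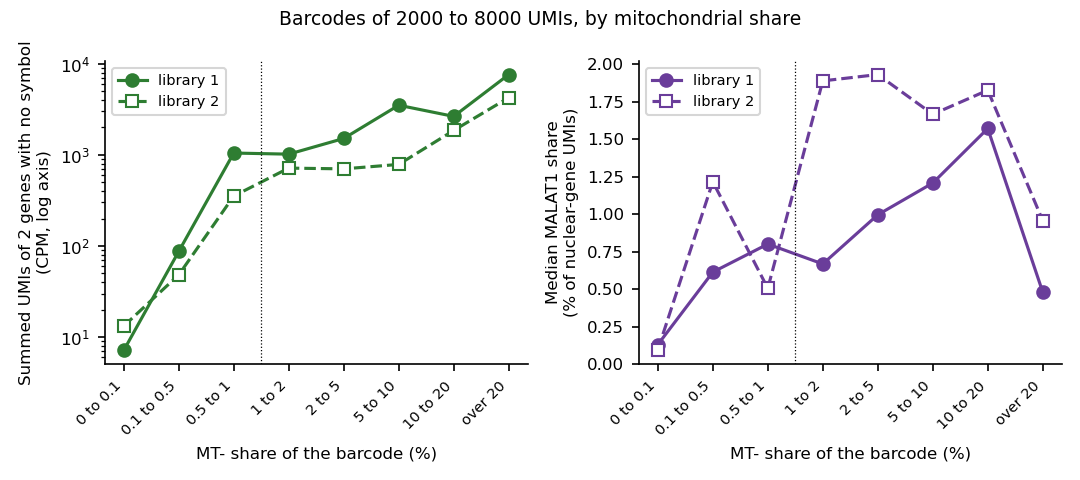
Barcodes of 2000 to 8000 UMIs by MT- share (x axis, %), with the summed level of the 2 genes with no symbol (left, CPM on a log axis) and the median MALAT1 share (right, %), by library. The left lines go from 7.14 and 13.2 CPM to 7596 and 4241 CPM between the lowest and highest shares. MALAT1 is lowest at 0 to 0.1%, and the dotted line marks the 1% limit of the members.

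The sums of all members were then tested gene by gene. With MT- genes removed, edgeR called 100 of 10467 genes (0.955%) against the comparison barcodes, 78 higher (0.745%) and 22 lower (0.21%). Against the deeper barcodes it called 99 (0.946%), 87 higher (0.831%) and 12 lower (0.115%), and 34 genes were called in both. These counts fell when the deepest members were left out. Without the 8 members over 20000 UMIs, 2 genes were called against the comparison barcodes and 5 against the deeper ones. ENSG00000289474 and ENSG00000289901 were the 2 left. Leaving those members out also removed 33.9% of the members' UMIs in library 1 and 61.2% in library 2, and the cause of the lower counts was not tested. In edgeR 1840 genes had an unadjusted p under 0.05 in the full test and 512 in that reduced one.

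Some of the genes with the largest rises were the following. ACTC1, cardiac actin (chromosome 15, 34790230 to 34795549), stood at 119.6 and 362 CPM in the members against 10.6 and 41.3, a log2 fold change of 3.08 ± 0.43 (SE, edgeR, adjusted p = 0.00172). H3-3A, a replacement histone, stood at 1441 and 1448 CPM against 579 and 510.1, a change of 1.63 ± 0.23 (SE, edgeR, adjusted p = 0.00172). H4C3, a histone H4 gene, rose by 2.57 (edgeR, adjusted p = 0.00466), TAGLN, an actin-binding protein, by 1.62 (edgeR, adjusted p = 0.0166) and LGALS3, galectin 3, by 1.71 (edgeR, adjusted p = 0.0236). Without the members over 20000 UMIs the fold changes of ACTC1, H3-3A and H4C3 were 1.71, 1.23 and 0.69, and none passed.

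By gene span, the median log2 fold change against the comparison barcodes was 0.58 for 1570 genes under 10 kb, 0.04 for 6062 genes of 10 to 100 kb, -0.29 for 2283 genes of 100 to 500 kb and -0.39 for 264 genes of 500 kb and over. Of the genes called, 48 higher and 5 lower were under 10 kb, while 0 higher and 8 lower spanned 100 to 500 kb. Without the members over 20000 UMIs the medians were 0.37, 0.05, -0.15 and -0.15, and after thinning to 2000 UMIs 0.35, 0.01, -0.19 and -0.11, so the order of the 2 longest bins did not hold.

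Beside 0.745% of all genes called higher, 7 of 79 ribosomal protein genes were called higher and 0 lower, and all 79 had a fold change above 0, with a median of 0.73 against -0.01 for all genes tested. RPL23 rose by 1.36 (edgeR, adjusted p = 0.0222). Over all genes under 10 kb the median was 0.58, with 82.4% above 0 and 48 of 1570 called higher. List genes were not set against genes of like span, so the part of span in the list medians was not tested. Of 74 respiratory chain genes 9 were called higher and 0 lower, with a median of 0.77, among them COX5A, a cytochrome c oxidase subunit, and the ATP synthase gene ATP5PO. Of 30 cytoskeleton and translation genes 7 were higher, with a median of 0.84, and FTL rose by 1.24 (edgeR, adjusted p = 0.0236). Of 13 trophectoderm markers the keratins KRT8, KRT18 and KRT19 were called higher. Of 34 mitochondrial ribosome genes 1 was called and of 14 glycolysis genes 1, the kinase PGK1, again beside 0.745%. None of these list members passed without the members over 20000 UMIs. The medians were then 0.43 for ribosomal proteins, 0.49 for the respiratory chain and 0.56 for the cytoskeleton list, beside 0.37 for all genes under 10 kb.

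The lists of import, mitophagy, mitochondrial gene expression, heat shock, ER chaperones, splicing and S and G2/M phase had 131 genes tested. Of these edgeR called 0 against the comparison barcodes, with 30 at an unadjusted p under 0.05. DESeq2 called 13, of which 6 were import genes. Over all 10467 genes edgeR called 0.955% and DESeq2 called 526 genes, and the unadjusted count is given above. At 0.955% few calls would fall among 131 genes, so the 0 does not show that these lists were level. The heat shock median was 0.34 over 10 genes and the mitophagy median 0.21 over 12.

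MALAT1 fell by 1.14 ± 0.21 (SE, edgeR, adjusted p = 0.0236), from 27838 and 21368 CPM in the comparison barcodes to 10542 and 8555 CPM. It was the single nuclear-retained RNA called of 9 tested, beside 0.21% of all genes called lower. ATF7IP2, a chromatin factor, fell by 2.21 (edgeR, adjusted p = 0.00127), CDH10, a cadherin, by 1.68 (edgeR, adjusted p = 0.029) and the epiblast marker SFRP2, a WNT inhibitor, by 2.89 (edgeR, adjusted p = 0.0292), from 15.9 and 41.3 CPM to 4.599 and 3.14, which rest on 3 UMIs in each library.

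PLCG2, a phospholipase of signalling (chromosome 16, 81739041 to 81962685), went opposite ways in the 2 comparisons. It fell by 1.79 (edgeR, adjusted p = 0.0335) against the comparison barcodes and rose by 3.55 (edgeR, adjusted p = 0.000163) against the deeper ones. It was unevenly spread, with at least 1% of nuclear-gene UMIs in 5 members of library 1 and 3 of library 2, and in 7 comparison barcodes of library 1 and 4 of library 2. Members of low long-gene share held little of it, 10 of the members' 465 UMIs in library 1 and 5 of 180 in library 2. Those between the limits held 304 and 45 UMIs, and those of high share 151 and 130. The median share in the members of high share was 0 in both libraries, so their UMIs came from a minority of barcodes. Against the deeper barcodes PLCG2 also passed without the members over 20000 UMIs, at 4.42 (edgeR, adjusted p = 0.000256).

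Of the 7 epiblast markers tested, 2 were called lower against the deeper barcodes, beside 0.115% of all genes. MIR302CHG, host of pluripotency microRNAs, stood at 3.07 and 15.7 CPM (2 and 15 UMIs) against 52.998 and 74.3, and fell by 2.41 (edgeR, adjusted p = 0.00614). GAL, the neuropeptide galanin, fell by 2.26 (edgeR, adjusted p = 0.00665) and the collagen gene COL5A2 by 1.17 (edgeR, adjusted p = 0.0413). MIR302CHG and GAL also passed without the members over 20000 UMIs. The imprinted gene PHLDA2 rose by 2.47 (edgeR, adjusted p = 0.00614) and the early response gene FOS by 1.62 (edgeR, adjusted p = 0.0277), but without those members their changes were -0.55 and -0.38.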

How the data were processed

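Each library came as a deposited matrix of raw UMI counts (whole numbers, not normalized). The submitters' processing notes name Cell Ranger 9.0.0 and GRCh38. The sources used here do not give whether reads in introns were counted. The depth was 38665475 UMIs in library 1 (1988 barcodes) and 45208758 UMIs in library 2 (2601 barcodes). No column lacked a sample. The low-MT members, gene lists, classes and rules were chosen with earlier results of these data known.

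UMIs were added up by gene within each class and library, for 5 classes with at least 20 barcodes in both libraries: members, comparison barcodes, deeper barcodes, 1 to 2% MT- and over 20% MT-. The sums, without MT- genes, were tested in edgeR 4.0.16 (R 4.3.3; TMM, filterByExpr, library as a block, quasi-likelihood test, Benjamini-Hochberg adjustment, threshold 0.05), with 4 residual degrees of freedom. The block pairs classes of the same library. The SE is the fold change divided by the square root of the F statistic. The step was tested on simulated data. Alternatives used DESeq2 1.42.0 and others listed in the closing section. Doublets were sought with scrublet (scanpy 1.11.5) and left in, since it marked few.

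Genes were named by a rule: per comparison the 12 largest rises and 12 largest falls among called genes that had a gene symbol, reached 50 CPM in the higher class and moved 1 way in both libraries, and of each list up to 4 members with the largest change at 10 CPM or more. Not all are reported, and genes named beside the ranges of the long-gene share were chosen after their values were seen. Gene spans came from RefSeq (GRCh38.p14) by symbol; 97.2% of tested genes had one. Ratios within the ranges use CPM averaged over barcodes plus 5. Shares were read after thinning to 2000 UMIs, leaving out 13 and 11 shallower members. Exact intervals are Clopper-Pearson at 95% and cover counting error only.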

Additional observations from a re-analysis of the deposited data

How the results depend on the processing

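The count of genes called depended on the setting. Against the comparison barcodes, where 100 genes were called, the count was 160 with DESeq2 size factors, 371 with no filter on low counts, 526 with the DESeq2 Wald test, 31 with only the 2 classes in the fit, 216 with no replicate block (no pairing of the classes by library), 299 with members under 0.5% MT-, 9 with at least 2000 genes, 4 after thinning to 2000 UMIs, 2 with members of 2000 to 8000 UMIs and 2 with members up to 20000 UMIs. Against the deeper barcodes, where 99 were called, these counts were 355, 153, 637, 343, 780 with no replicate block, 608, 2, 11, 7 and 5, and 151 with scrublet doublets removed. The cause of these differences was not tested. The limit of 20000 UMIs was chosen after seeing the data. Leaving out 1 library leaves 1 sum per class and no test, so no count was made.

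ENSG00000289474 and ENSG00000289901 were called in all 13 settings in both comparisons, with log2 fold changes no nearer 0 than -3.16 and -3.90 against the comparison barcodes. Without the deepest members the changes against the deeper barcodes turned for PHLDA2, to -0.55, and FOS, to -0.38. Against the comparison barcodes FOS, at 1.355 and not called, was at -0.59 without them and at -0.16 with members of 2000 to 8000 UMIs. The share of low-MT barcodes was 3.37% with at least 2000 genes, and without 1 library it ran from 4.97 to 9.33%. The share of members at 15 to 35% long-gene UMIs was 17.4% with each limit moved 2.5 points further out, and 4.88% with members under 0.5% MT-. With about 2000 UMIs in many members, single genes under about 10 CPM rest on few UMIs.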

Other observations

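Barcodes under 1000 detected genes were outside the rule, and many of them also held little mitochondrial RNA: 398 of 980 in library 1 (40.6%, 95% exact interval 37.5 to 43.8) and 230 of 1013 in library 2 (22.7%, 20.2 to 25.4) had under 1% MT- UMIs. Every barcode in the files had at least 200 detected genes.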
